A study of Mus musculus with 8 samples.

Results

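The mitochondrial ribosome (mitoribosome) is built in the cell from parts of 2 genomes, and this account covers the nuclear genes for its proteins in RAW264.7, a macrophage-like cell line from mouse. Members were the rows of the deposited count table whose symbol is Mrpl (large subunit) or Mrps (small subunit) with a number and at most one letter from a to c, and whose counts summed to at least 10 over 8 libraries. Of 42454 rows, 78 carry such a symbol and 76 are members, 48 with a large and 28 with a small subunit symbol. The other two, Mrps23 and Mrpl40, had 0 counts in every library, and the member with the lowest sum above the threshold was Mrps18b with 15 counts.

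The mitoribosome translates the few messages of the mitochondrial DNA, which encode subunits of the respiratory chain and the ATP synthase. Its small subunit binds the message and decodes it on a 12S ribosomal RNA, and its large subunit joins amino acids on a 16S ribosomal RNA. The ribosomal RNAs come from mitochondrial DNA, whereas every protein is encoded in the nucleus, made in the cytosol and imported. Part of the proteins belong to families shared with bacteria, and the rest are found in mitochondria and not in bacterial ribosomes. In macrophages, inflammatory activation is known for a shift from respiration towards glycolysis.

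The 8 libraries, from polyadenylated RNA and a kit that keeps no strand, fall by their labels into 4 groups of 2. The groups were TubB (Tubuloside B, a plant phenylethanoid glycoside, with no dose or time in the labels), mock (DMSO, the solvent), LPS_IFNg_TubB (bacterial lipopolysaccharide at 10 ng/ml and interferon-gamma at 20 ng/ml for 24 h, with Tubuloside B) and LPS_IFNg (the same stimulus without it). Every group is the same cell line, and the labels do not say whether replicates came from different cultures. The spread behind every p-value is therefore that of these libraries and may be technical. Library totals ran between 4767894 counts (LPS_IFNg_TubB replicate 1) and 8413834 counts (TubB replicate 2).

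The labels and the activation markers of these libraries disagree. The summed level of Nos2, Ptgs2 and Il6, which macrophages switch on when activated, was 7160 to 9240 CPM (TMM-scaled counts, the usual CPM unit) in the libraries labelled TubB and 199 to 220 CPM in those labelled mock. It was 7660 to 9550 CPM in the libraries labelled LPS_IFNg_TubB and 211 to 242 CPM in those labelled LPS_IFNg. The markers were therefore high with the TubB label and low without it, whichever stimulus label the library had. Group names below are the labels, and in both compound contrasts the label TubB and these markers cannot be told apart. The 6 macrophage markers (Adgre1, Csf1r, Cd68, Lyz2, Fcgr1, Itgam) passed the filter on low counts. With the TubB label, 3 of them were higher and 1 lower in both contrasts, with log2 fold changes in TubB minus mock of 2.71 ± 0.15 for Adgre1 (edgeR adjusted p 3.95e-15), 1.82 ± 0.17 for Fcgr1 (5.41e-10), 0.80 ± 0.07 for Itgam (2.18e-10) and -1.20 ± 0.09 for Csf1r (1.16e-11). Of the others, 8 of 12 markers of T cells, B cells, fibroblasts and epithelium had 0 counts in every library, with a summed level of 0.658 to 2.79 CPM over all libraries.

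The proximal promoters of the 4 members that the results below turn on are shown first, because their levels moved in opposite directions in the same libraries. Each is the RefSeq window of 250 bases before and 50 bases after a transcription start (GRCm38.p6, plus strand). Capitals mark matches to letters bound by factors known to act on nuclear genes for mitochondria, searched on both strands, namely the NRF1 motif and ACTTCCGG (ETS factors such as GABP). The window of Mrpl45 lies inside the span that the count table gives for that gene.
Mrps26 (chr2:130563507-130563806): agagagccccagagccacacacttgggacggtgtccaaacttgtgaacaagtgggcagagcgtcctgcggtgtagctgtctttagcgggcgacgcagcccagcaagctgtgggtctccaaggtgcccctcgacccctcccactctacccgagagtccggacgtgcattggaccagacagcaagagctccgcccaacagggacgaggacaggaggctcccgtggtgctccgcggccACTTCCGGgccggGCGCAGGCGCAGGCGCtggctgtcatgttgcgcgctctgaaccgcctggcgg
Mrpl12 (chr11:120484387-120484686): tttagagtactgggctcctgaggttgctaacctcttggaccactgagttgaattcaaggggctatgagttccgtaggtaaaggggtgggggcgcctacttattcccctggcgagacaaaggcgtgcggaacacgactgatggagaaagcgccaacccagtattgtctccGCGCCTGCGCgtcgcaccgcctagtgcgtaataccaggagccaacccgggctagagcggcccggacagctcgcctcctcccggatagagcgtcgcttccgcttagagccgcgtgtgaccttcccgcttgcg
Mrpl45 (chr11:97315466-97315765): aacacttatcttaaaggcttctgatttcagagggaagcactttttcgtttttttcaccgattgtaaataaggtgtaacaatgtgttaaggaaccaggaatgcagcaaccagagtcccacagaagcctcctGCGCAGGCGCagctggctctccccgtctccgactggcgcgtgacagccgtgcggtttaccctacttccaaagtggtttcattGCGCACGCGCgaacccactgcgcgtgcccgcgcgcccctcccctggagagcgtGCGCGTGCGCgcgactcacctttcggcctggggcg
Mrpl52 (chr14:54426659-54426958): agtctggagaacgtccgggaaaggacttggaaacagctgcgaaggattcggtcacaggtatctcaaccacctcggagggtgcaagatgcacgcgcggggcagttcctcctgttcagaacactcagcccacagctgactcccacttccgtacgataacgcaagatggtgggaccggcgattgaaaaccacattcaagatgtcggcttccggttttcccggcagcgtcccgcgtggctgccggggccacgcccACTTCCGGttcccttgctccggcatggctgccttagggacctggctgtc
The window of Mrps26 holds 2 NRF1 matches, which overlap each other, and 1 ETS match. There was 1 NRF1 match in the window of Mrpl12 and 3 in that of Mrpl45, and the window of Mrpl52 holds 1 ETS match. So the NRF1 letters were in the windows of the lower members Mrps26 and Mrpl12 and of the higher member Mrpl45, and not in that of Mrpl52. Of the 73 members tested, 64 had a window, giving 70 windows, among 32851 in all. The NRF1 letters were in 18.6% of member windows and 4.6% of all windows. ETS letters were in 17.1% of member windows and 3.89% of all, and the YY1 letters AAGATGGCG in 11.4% and 1.4%. An E-box, CACGTG, was in 10.0% of member windows and 7.15% of all. Among the 32 windows of members lower in either compound contrast, 12.5% held NRF1 letters and 18.8% YY1 letters, against 20.0% and 5.71% of the 35 windows of members called in neither. ETS letters were in 15.6% of the windows of lower members and the E-box in 15.6%, against 17.1% and 5.71% of those called in neither. Members higher in either contrast had 3 windows, of which 2 held NRF1 letters, 1 ETS letters and 0 YY1 letters or an E-box. A match is a description of the letters and not a site.

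Whether the libraries with the TubB label differ from their mates in mitoribosome messages was asked with edgeR's quasi-likelihood test across all 11081 genes that passed the filter on low counts, with an adjusted p under 0.05 as the call. Of the 76 members, 73 passed the filter, 47 large and 26 small. The other 3 were Mrpl22, Mrps18b and Mrps10, with 18, 15 and 23 counts over all libraries. Most members that were called had lower levels in the libraries labelled TubB than in those labelled mock. In that contrast 27 members were lower, which is 37.0% beside 24.9% of all genes tested, and 2 were higher, beside 26.3% of all genes. Together 29 were called, where 51.2% of all genes were. The median log2 fold change was -0.29 over the members and -0.01 over all genes. Scaled by library totals alone, 48 members were lower (65.8%), beside 37.9% of all genes, whose median then moved to -0.23. With the stimulus label on both sides, LPS_IFNg_TubB minus LPS_IFNg, 30 members were lower (41.1%, beside 25.0% of all genes) and 4 were higher (beside 26.2%), 34 in all where 51.2% of all genes were called, and the median was -0.30. Leaving out single libraries of this contrast lowered the number of members called by a larger share than that of all genes. With each library left out in turn, the median over members stayed between -0.36 and -0.21. That over all genes stayed between -0.02 and 0.01. In these bulk libraries, fewer cells with a message and less of it per cell cannot be told apart.

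**Figure D1:**
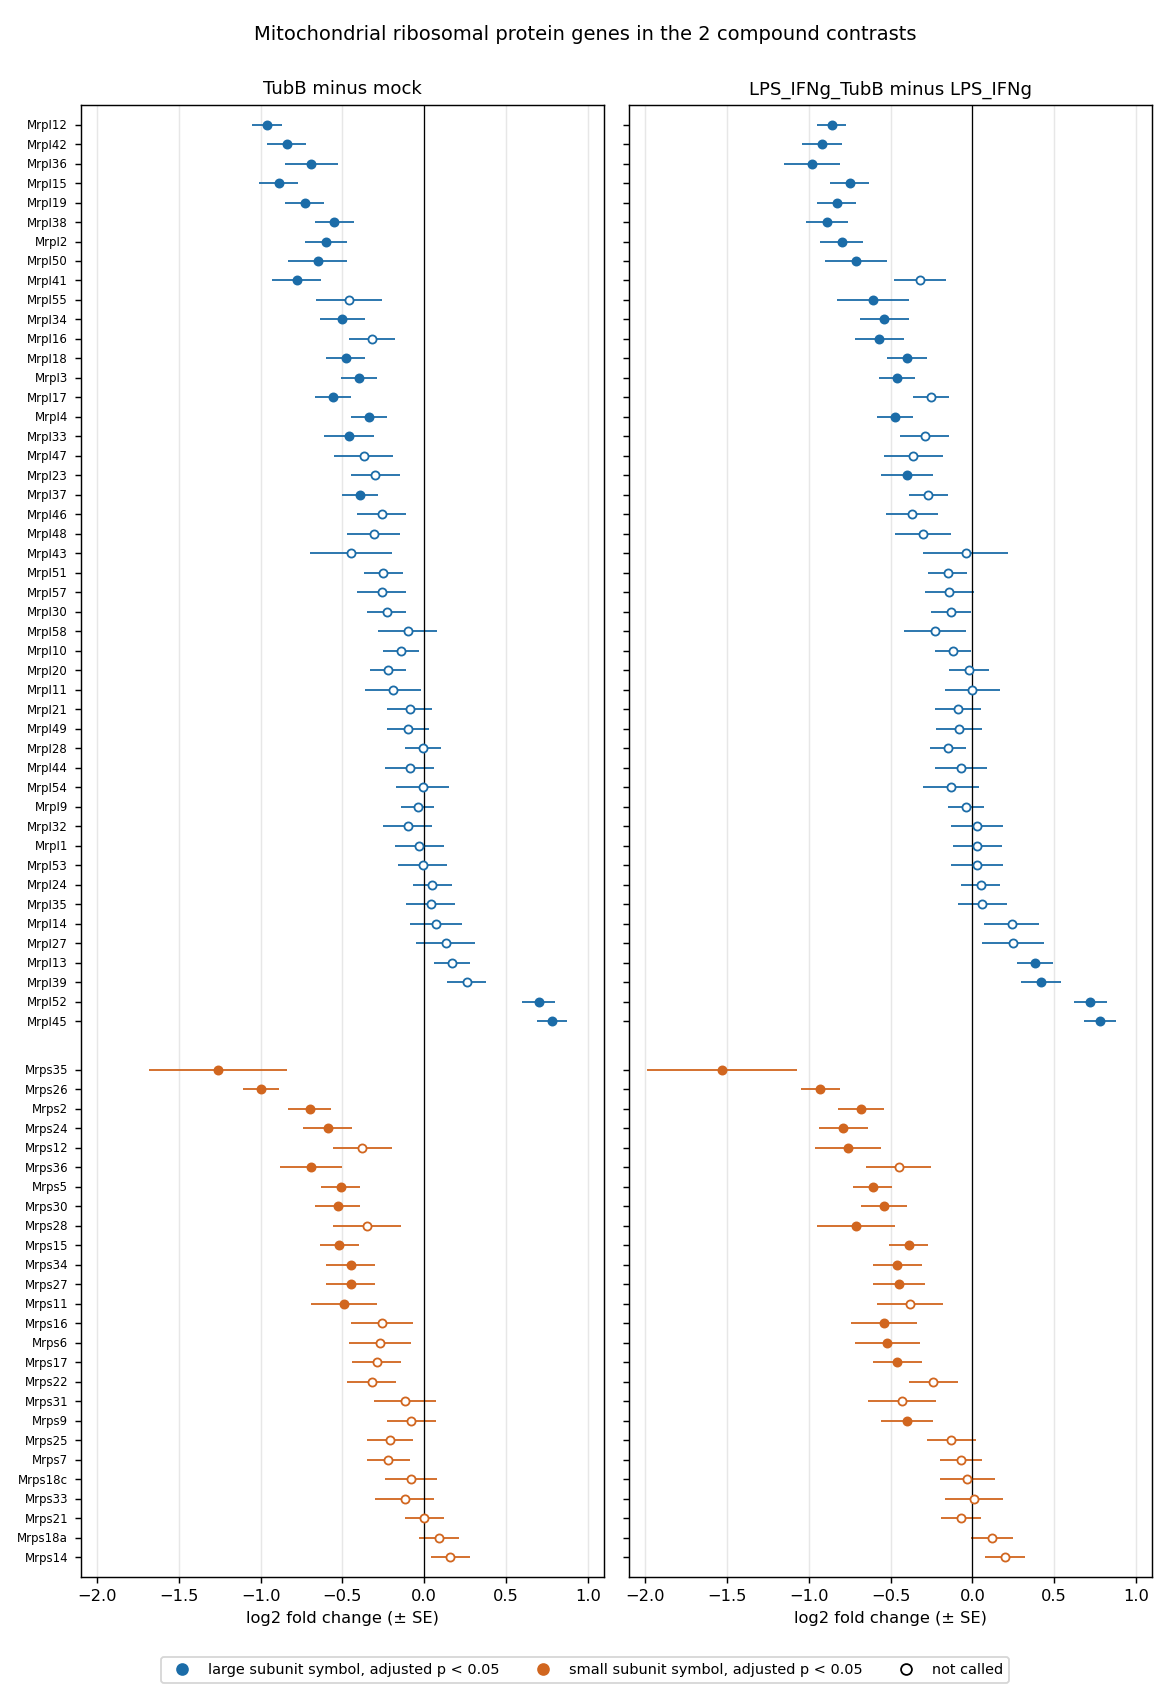
Log2 fold change with its SE (x axis) of each of the 73 members tested, one per line, for TubB minus mock on the left and LPS_IFNg_TubB minus LPS_IFNg on the right; filled points have an edgeR adjusted p under 0.05. Most filled points lie left of 0 in both panels, and Mrpl45 and Mrpl52 lie furthest to the right, between 0.70 and 0.78.

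Both contrasts use different libraries, and they ordered the members alike. A total of 21 members were lower in both, 12 of the large and 9 of the small subunit, and Mrpl45 and Mrpl52 were higher in both. The share of all genes called in both contrasts was not counted, so these counts have no background beside them. In each contrast by itself, 51.2% of all genes were called. A further 6 were lower in TubB minus mock alone and 9 in LPS_IFNg_TubB minus LPS_IFNg alone, and Mrpl39 and Mrpl13 were higher in the second alone; these are calls, and the difference between contrasts was tested separately below. The sign agreed for 69 of 73 members. Across the 73 members the fold changes of the 2 contrasts had a Pearson correlation of 0.90, and across all 11081 genes of 0.92, as a description, since genes of one library share its depth and scaling.

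Another 33 members, 24 large and 9 small, were called in neither contrast, and the share of all genes called in neither was not counted. Mean log2 fold change hardly followed the length or the level of a member, with a Pearson correlation of 0.04 with log2 exon length and 0.09 with log2 CPM in the mock and LPS_IFNg libraries, over 73 members.

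**Figure D2:**
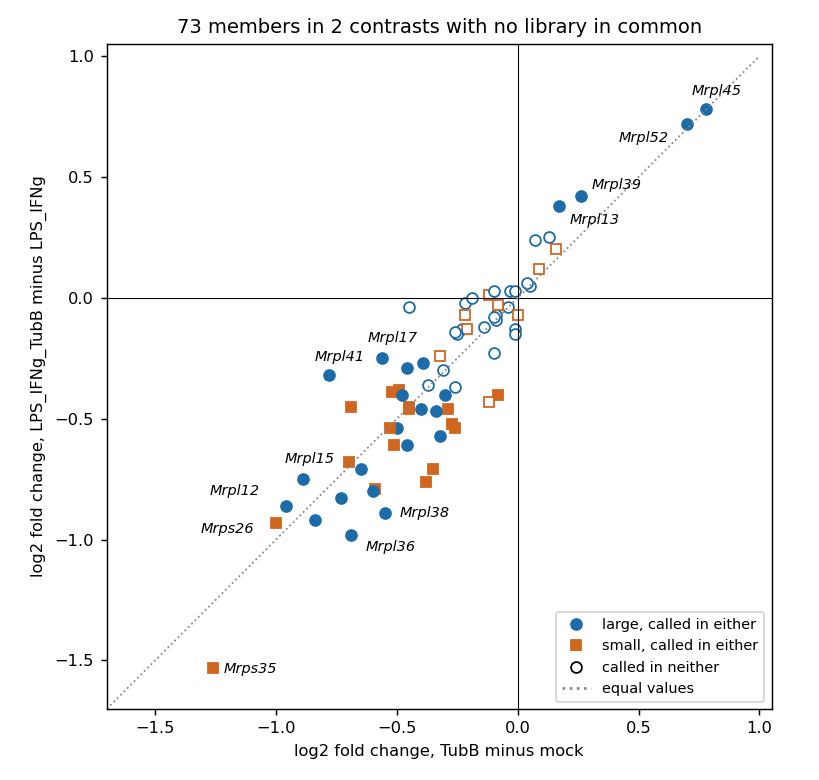
Each point is 1 of 73 members, with its log2 fold change in TubB minus mock on the x axis and in LPS_IFNg_TubB minus LPS_IFNg on the y axis; filled points were called in either contrast and the dotted line marks equal values. Points run along the line, with Mrps35 lowest (-1.26 and -1.53) and Mrpl45 highest (0.78 in both).

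Among large subunit members, Mrpl12 had the smallest adjusted p in both contrasts. Its protein forms the stalk that recruits translation factors, the counterpart of L7/L12 in bacteria. Mrpl12 (chromosome 11, 120484637 to 120488754) had 73.1 and 69.5 CPM in the TubB libraries, against 145.1 and 132.0 CPM in mock. It had 78.7 and 76.8 CPM in LPS_IFNg_TubB, against 136.6 and 145.9 CPM in LPS_IFNg. All 4 libraries with the TubB label lay far below all 4 without it. The log2 fold change was -0.96 ± 0.09 (SE; edgeR adjusted p 6.4e-10) for TubB minus mock and -0.86 ± 0.09 (7.22e-09) for LPS_IFNg_TubB minus LPS_IFNg.

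Mrpl15, of a bacterial family and part of the core of the large subunit, followed the same course. Mrpl15 (chromosome 1, 4773198 to 4785750) had 49.9 and 41.1 CPM in TubB, against 79.1 and 87.3 CPM in mock. In the libraries with the stimulus label it had 45.5 and 51.4 CPM in LPS_IFNg_TubB, against 82.5 and 80.7 CPM in LPS_IFNg. The groups did not overlap, and the log2 fold changes were -0.89 ± 0.12 (edgeR adjusted p 2.24e-07) and -0.75 ± 0.12 (4.95e-06).

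Mrpl42, a mitochondria-specific protein, and the bacterial family members Mrpl19 and Mrpl36 also fell in both contrasts. Mrpl42 (chromosome 10, 95480805 to 95501949) had 43.0 and 44.1 CPM in TubB, against 77.3 and 79.2 CPM in mock, and 42.2 and 43.3 CPM in LPS_IFNg_TubB, against 73.2 and 89.2 CPM in LPS_IFNg. Its log2 fold changes were -0.84 ± 0.12 and -0.92 ± 0.12, with edgeR adjusted p of 5.15e-07 and 1.76e-07. Its replicates lay close together except in the wider LPS_IFNg pair. Mrpl19 (chromosome 6, 81957826 to 81965949) had 43.9 and 52.5 CPM in TubB, against 79.1 and 82.4 CPM in mock, and 41.1 and 37.3 CPM in LPS_IFNg_TubB, against 65.7 and 72.9 CPM in LPS_IFNg. Of its exon bases, 22.8% are shared with Gcfc2, and without strand their reads cannot be told apart. Its log2 fold changes were -0.73 ± 0.12 and -0.83 ± 0.12 (edgeR adjusted p 4.77e-06 and 1.97e-06). Mrpl36 (chromosome 13, 73328503 to 73332178) had 19.5 and 27.1 CPM in TubB, against 37.8 and 39.1 CPM in mock, and 19.3 and 22.1 CPM in LPS_IFNg_TubB, against 45.1 and 37.2 CPM in LPS_IFNg. Its TubB pair was the widest of the 3 genes in relative terms, and still below every library without the label, with log2 fold changes of -0.69 ± 0.16 and -0.98 ± 0.17 (edgeR adjusted p 0.000635 and 1.42e-05).

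Among small subunit members, Mrps26 had the smallest adjusted p in both contrasts. It is a mitochondria-specific protein of the small subunit. Mrps26 (chromosome 2, 130563757 to 130565394) had 45.5 and 52.3 CPM in TubB, against 98.0 and 98.7 CPM in mock. Its level was 41.1 and 49.4 CPM in LPS_IFNg_TubB, against 84.6 and 88.5 CPM in LPS_IFNg. No pair overlapped. The fold change was 0.501 for TubB over mock (SE 0.11 on the log2 scale, edgeR adjusted p 1.11e-08), and the log2 fold change was -0.93 ± 0.12 (1.01e-07) in the second contrast.

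Mrps2, of a bacterial family, was lower to a smaller extent. Mrps2 (chromosome 2, 28465951 to 28471177) had 33.6 and 42.7 CPM in TubB, against 57.1 and 68.9 CPM in mock, and 37.6 and 38.7 CPM in LPS_IFNg_TubB, against 57.9 and 64.7 CPM in LPS_IFNg. Pairs did not overlap, and the log2 fold changes were -0.70 ± 0.13 (edgeR adjusted p 5.03e-05) and -0.68 ± 0.14 (0.000114).

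Mrps35 had the lowest fold changes of all members and the lowest counts of those tested, 179 over all libraries. It is a mitochondria-specific protein of the small subunit. Mrps35 (chromosome 6, 147042728 to 147070906) had 1.98 and 2.26 CPM in TubB, against 5.16 and 5.19 CPM in mock, and 2.30 and 1.32 CPM in LPS_IFNg_TubB, against 5.10 and 5.10 CPM in LPS_IFNg. The log2 fold changes were -1.26 ± 0.42 (edgeR adjusted p 0.0125) and -1.53 ± 0.46 (0.00601). The first call was lost without any 1 of the mock or TubB libraries (adjusted p 0.0531 to 0.0597), and the second without LPS_IFNg_TubB replicate 2 (0.104). Most of its reads were counted on a second row of the table, a numbered copy of the same symbol at another place in the assembly. That copy, which the member rule does not take, had 9.88 and 8.04 CPM in TubB, against 24.3 and 23.7 CPM in mock, and 6.66 and 7.60 CPM in LPS_IFNg_TubB, against 21.9 and 23.6 CPM in LPS_IFNg. With both rows added, Mrps35 had log2 fold changes of -1.41 ± 0.18 (edgeR adjusted p 1.89e-07) and -1.64 ± 0.20 (5.12e-08). Numbered copies also exist for Mrpl22, Mrps18b, Mrps10, Mrps23 and Mrpl40, so a count near 0 for these symbols does not show a low message level. Of these copies, 1 of Mrps23 held counts, with 34.3 and 35.7 CPM in TubB against 49.5 and 45.3 CPM in mock, and log2 fold changes of -0.44 ± 0.13 (edgeR adjusted p 0.00584) and -0.49 ± 0.14 (0.00332).

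**Figure D3:**
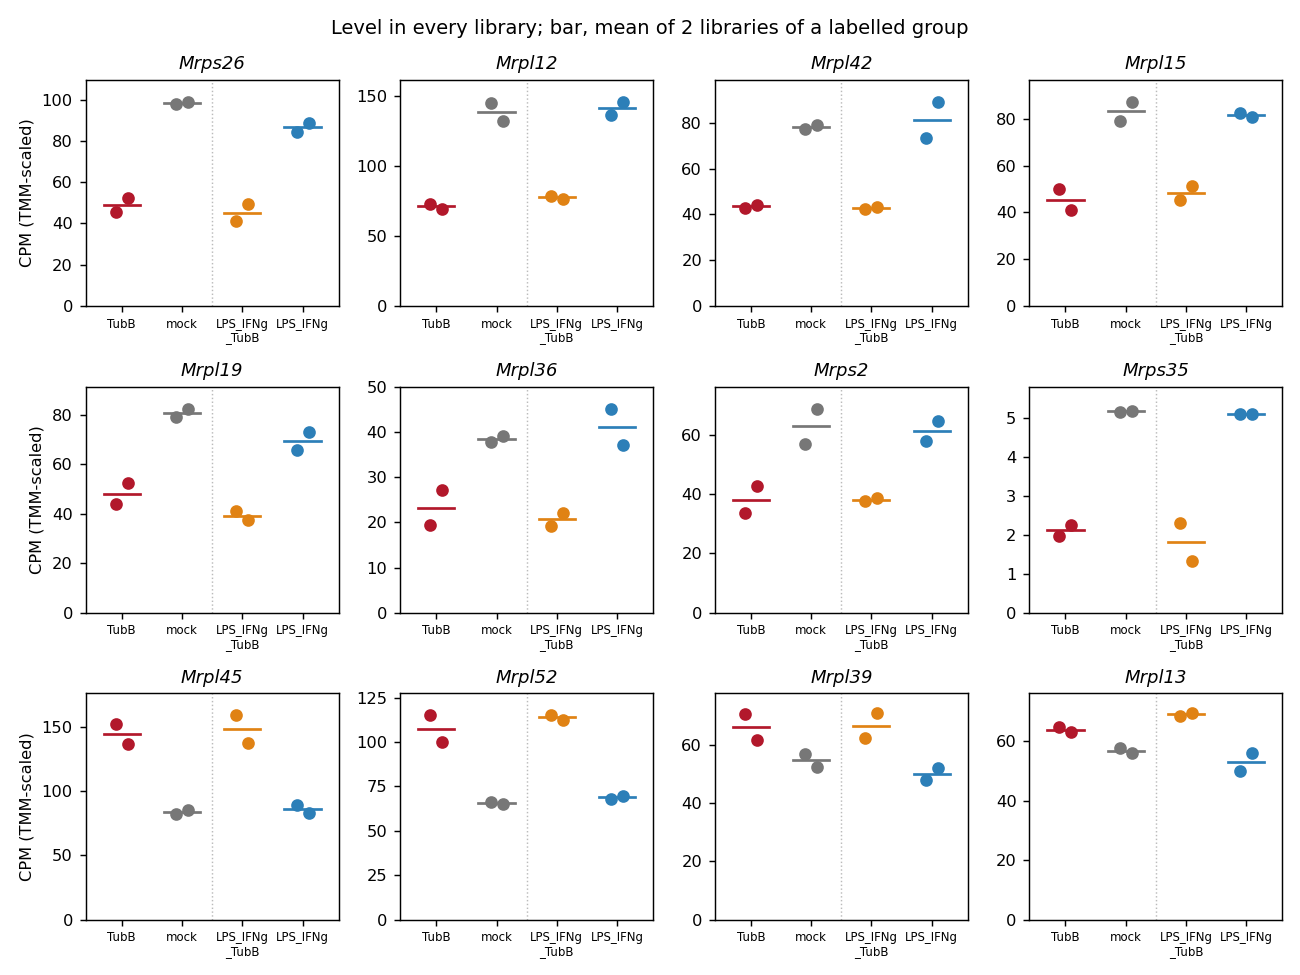
Level in CPM (y axis, from 0) of 12 members in every library; each point is 1 library, each bar the mean of the 2 libraries of a group, and the dotted line separates the pairs of groups compared. The upper 8 panels, Mrps26 to Mrps35, show lower points with the TubB label, and the lowest row, Mrpl45, Mrpl52, Mrpl39 and Mrpl13, shows higher ones, with smaller gaps for the last pair of genes.

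Mrpl45 and Mrpl52 were the only members called higher in both contrasts. Mrpl45, a mitochondria-specific protein near the exit of the peptide tunnel that helps hold the ribosome to the inner membrane, lies on chromosome 11, 97314923 to 97329920. Its level was 152.8 and 137.2 CPM in TubB, against 82.6 and 85.4 CPM in mock, and 159.5 and 137.8 CPM in LPS_IFNg_TubB, against 89.0 and 83.1 CPM in LPS_IFNg. Every library with the TubB label was above every library without it. Its log2 fold change was 0.78 ± 0.09 (edgeR adjusted p 4.43e-08) in TubB minus mock and 0.78 ± 0.10 (6.14e-08) in LPS_IFNg_TubB minus LPS_IFNg.

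Mrpl52, another mitochondria-specific protein of the large subunit, was the most abundant member per length. Mrpl52 (chromosome 14, 54426909 to 54429750) had 115.1 and 100.1 CPM in TubB, against 66.1 and 65.3 CPM in mock, and 115.5 and 112.2 CPM in LPS_IFNg_TubB, against 68.0 and 69.7 CPM in LPS_IFNg. Again the groups did not overlap, with log2 fold changes of 0.70 ± 0.10 (edgeR adjusted p 6.9e-07) and 0.72 ± 0.10 (5.37e-07).

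Mrpl39 and Mrpl13 rose in LPS_IFNg_TubB minus LPS_IFNg and were not called in TubB minus mock. Mrpl39, mitochondria-specific (chromosome 16, 84717580 to 84735383), had 62.4 and 70.9 CPM in LPS_IFNg_TubB, against 47.9 and 52.2 CPM in LPS_IFNg, and 70.7 and 61.6 CPM in TubB, against 57.1 and 52.5 CPM in mock. Mrpl13, of a bacterial family (chromosome 15, 55534095 to 55557312), had 68.6 and 69.6 CPM in LPS_IFNg_TubB, against 50.2 and 56.2 CPM in LPS_IFNg, and 64.8 and 63.1 CPM in TubB, against 57.8 and 56.0 CPM in mock. Each of these pairs was free of overlap, with a narrower gap than for Mrpl45 and Mrpl52. The log2 fold changes in the second contrast were 0.42 ± 0.12 (edgeR adjusted p 0.00441) for Mrpl39 and 0.38 ± 0.11 (0.00622) for Mrpl13, and in TubB minus mock 0.26 ± 0.12 (0.0611) and 0.17 ± 0.11 (0.214). Both calls were lost without LPS_IFNg replicate 1 (adjusted p 0.0651 and 0.0999), and that of Mrpl39 also without LPS_IFNg_TubB replicate 2 (0.0876). In TubB minus mock, Mrpl39 was called without TubB replicate 2 (0.38, adjusted p 0.0232) and with RLE factors, another scaling (0.28, 0.0487). Scaled by library totals alone, neither was called (0.149 and 0.225), and Mrpl13 had a log2 fold change of -0.05 in TubB minus mock.

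When each library was left out in turn, 13 members were called in both contrasts in every fit, namely Mrpl2, Mrpl3, Mrpl12, Mrpl15, Mrpl19, Mrpl36, Mrpl38, Mrpl42, Mrps2, Mrps5 and Mrps26, which were lower, and Mrpl45 and Mrpl52, which were higher. Such fits leave a single library in a group. In LPS_IFNg_TubB minus LPS_IFNg, more calls were lost in some such fit than stood in all of them. In TubB minus mock, fewer calls were lost than stood. The share of all genes called in both contrasts in every such fit was not counted. The number of members that stood therefore has no background beside it, and does not set them apart from other genes.

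The large and the small subunit were then set side by side. In TubB minus mock, 16 of 47 large subunit members were lower and 2 higher, with a median log2 fold change of -0.26. For the small subunit, 11 of 26 were lower and 0 higher, with a median of -0.33. In LPS_IFNg_TubB minus LPS_IFNg, 15 of 47 large subunit members were lower (31.9%) and 4 higher, with a median of -0.15, against 15 of 26 small subunit members lower (57.7%) and 0 higher, with a median of -0.45. The background share of lower genes is 24.9% and 25.0%, as above. The size of the gap between subunits in the second contrast depended on single libraries. The large subunit median was -0.26 without LPS_IFNg replicate 1 and -0.29 without LPS_IFNg_TubB replicate 2. With each library left out in turn, it ran from -0.29 to -0.14 and the small subunit median from -0.47 to -0.39. The small subunit median was thus the lower one in every such fit. The count of lower small subunit members fell without single libraries, and without LPS_IFNg replicate 2 by a larger share than that of all genes. DESeq2 called 9 lower, where it called 4815 of 11081 genes in either direction. Members share their libraries, and no test of one subunit against the other was made.

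A symbol does not always name the subunit. In structures of the mammalian mitoribosome, Mrps18a and Mrps30 sit in the large subunit, and the product of Mrps36 is now known as a subunit of the oxoglutarate dehydrogenase complex. With these moved or left out, 17 of 49 large subunit members were lower in TubB minus mock (34.7%) and 16 in LPS_IFNg_TubB minus LPS_IFNg (32.7%). Of 23 small subunit members, 9 and 14 were lower (39.1% and 60.9%). Over all genes, 24.9% and 25.0% were lower. The count of 14 fell without single libraries, and without LPS_IFNg replicate 2 by a larger share than that of all genes. With each library left out in turn, the small subunit median in the second contrast ran from -0.50 to -0.39. Mrps30 had log2 fold changes of -0.53 ± 0.14 (edgeR adjusted p 0.00166) and -0.54 ± 0.14 (0.00206). The first was lost without mock replicate 2 (adjusted p 0.0516) and the second without LPS_IFNg_TubB replicate 1 (0.0612). Mrps36 had -0.69 ± 0.19 (0.00247) and -0.45 ± 0.20 (0.0584). These 2 genes were picked for this paragraph for their placement.

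The 3 paralogs of the bacterial S18 family sit at different places in the ribosome. Mrps18a had 66.3 and 49.9 CPM in TubB, against 52.5 and 55.4 CPM in mock, and 56.0 and 58.7 CPM in LPS_IFNg_TubB, against 52.3 and 53.3 CPM in LPS_IFNg. Mrps18c had 26.1 and 29.7 CPM in TubB, against 32.4 and 27.0 CPM in mock, and 24.6 and 32.4 CPM in LPS_IFNg_TubB, against 26.8 and 31.9 CPM in LPS_IFNg. Pairs overlapped for both genes except for Mrps18a in the second contrast, and neither was called, with log2 fold changes of 0.09 ± 0.12 and 0.12 ± 0.13 for Mrps18a and -0.08 ± 0.16 and -0.03 ± 0.17 for Mrps18c. Mrps18b was below the filter and has a numbered copy in the table.

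Summed over the 73 members, the message level was 2854.2 ± 13.6 CPM in TubB and 3429.4 ± 47.2 CPM in mock (SD, n = 2 each), and 2853.5 ± 81.9 CPM in LPS_IFNg_TubB and 3383.2 ± 83.0 CPM in LPS_IFNg. Large subunit members summed to 2033.8 and 2036.3 CPM in TubB, against 2361.7 and 2409.8 CPM in mock, and to 2026.8 and 2076.4 CPM in LPS_IFNg_TubB, against 2304.8 and 2388.2 CPM in LPS_IFNg. Small subunit members summed to 810.8 and 827.5 CPM in TubB, against 1034.3 and 1053.0 CPM in mock, and to 768.8 and 835.0 CPM in LPS_IFNg_TubB, against 1019.7 and 1053.6 CPM in LPS_IFNg. Both sums were lower in every library with the TubB label.

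The ratio of the 2 sums needs no scaling between libraries. It was 2.51 and 2.46 in TubB, against 2.28 and 2.29 in mock, and 2.64 and 2.49 in LPS_IFNg_TubB, against 2.26 and 2.27 in LPS_IFNg. Large subunit messages thus made up more of the total in all 4 libraries with the TubB label. Without Mrpl45 and Mrpl52, chosen for this after their values were seen, the ratio was 2.18 and 2.17 in TubB, against 2.14 and 2.15 in mock, and 2.28 and 2.19 in LPS_IFNg_TubB, against 2.11 and 2.12 in LPS_IFNg. The pairs still did not overlap, and the gap was much narrower.

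**Figure D4:**
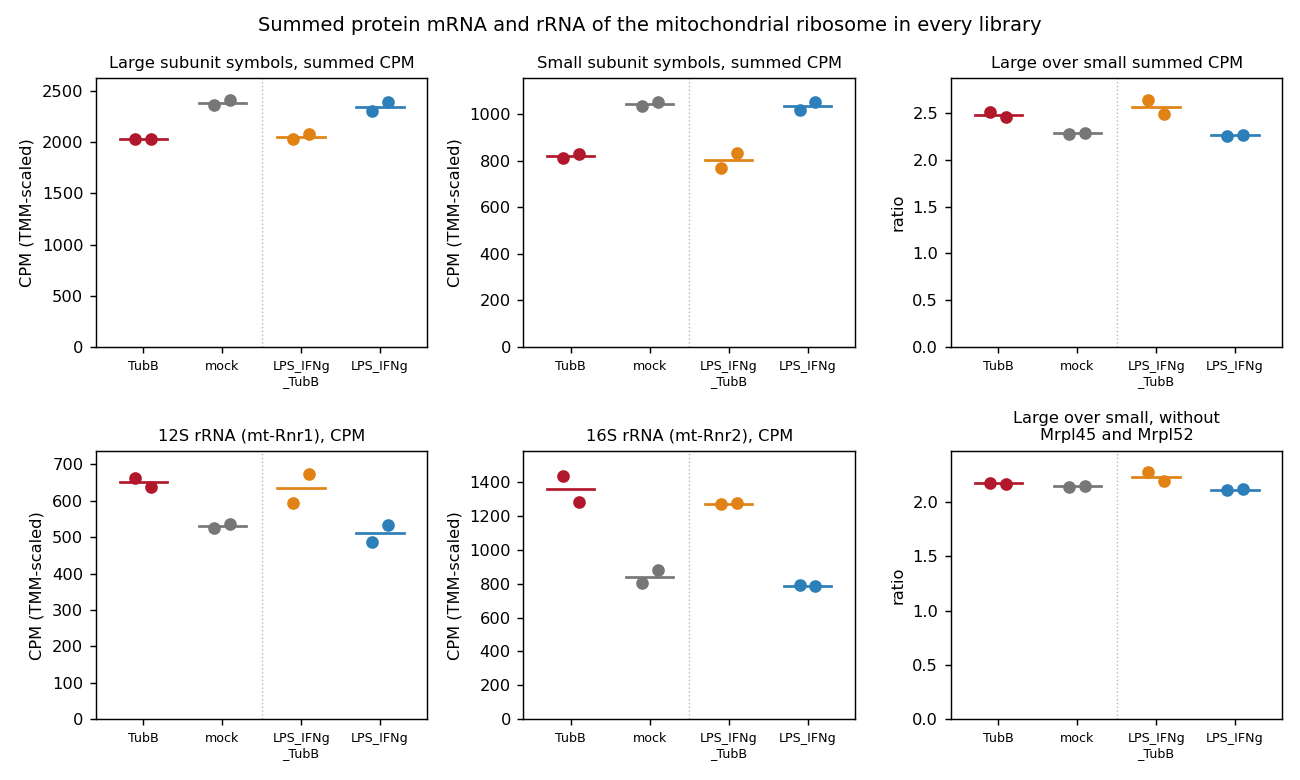
Upper row, summed CPM of the 47 large and of the 26 small subunit members and their ratio in every library; lower row, CPM of the mitochondrial 12S and 16S ribosomal RNA and the subunit ratio without Mrpl45 and Mrpl52. Points are libraries, bars are group means and every y axis starts at 0; the protein sums are lower and the ribosomal RNAs higher with the TubB label.

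The ribosomal RNAs of the same particle went the other way. They were chosen after their values were seen. The large subunit's 16S RNA (mt-Rnr2) had 1431.9 and 1279.8 CPM in TubB, against 800.4 and 882.6 CPM in mock, and 1265.8 and 1271.6 CPM in LPS_IFNg_TubB, against 789.6 and 784.4 CPM in LPS_IFNg. The small subunit's 12S RNA (mt-Rnr1) had 662.6 and 638.3 CPM in TubB, against 523.6 and 536.9 CPM in mock, and 594.8 and 672.6 CPM in LPS_IFNg_TubB, against 487.4 and 532.6 CPM in LPS_IFNg. Both were higher in each library with the TubB label than in any without it. The log2 fold changes of the 16S RNA were 0.69 ± 0.07 in both contrasts (edgeR adjusted p 2.29e-09 and 2.47e-09), and those of the 12S RNA 0.29 ± 0.07 (0.00114) and 0.31 ± 0.07 (0.000623). Scaled by library totals alone, the 12S RNA was at 0.08 and 0.10 (0.361 and 0.217) and was not called. The libraries were selected for poly(A), so these are levels of the ribosomal RNA that such a selection retains.

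Per length, members spanned a wide range of levels. Mean RPKM (CPM per kilobase of exon) had a median over members of 21.4 in TubB, 26.3 in mock, 21.5 in LPS_IFNg_TubB and 26.2 in LPS_IFNg. The highest 3 over all groups were Mrpl52 at 216.0 RPKM, Mrps21 (a bacterial family member of the small subunit) at 110.4 and Mrpl12 at 109.3. The lowest 3 were Mrps35 at 2.41 RPKM, Mrpl48 at 4.83 and Mrps25 at 6.19. The division is by all annotated exon bases, so a long annotation lowers the rank of a member. These are 5052 bases for Mrpl48 and 6076 for Mrps25, against 412 for Mrpl52. Mrpl48 also shares 9.3% of its exon bases with Rab6a. Mrps25 shares 58.4% of its exon bases with Nr2c2, so its level is uncertain, and Mrps35 is the member with a counted copy. Mrps21 was not called, with log2 fold changes of 0.00 ± 0.12 and -0.07 ± 0.12, so the 3 most abundant members comprised 1 higher, 1 lower and 1 with no call. In all 4 groups Mrpl52 was highest and Mrps35 lowest.

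By origin, 43 tested members belong to families shared with bacteria and 27 are mitochondria-specific. Mrps28, Mrpl55 and Mrps36 were left unclassed. Of these, Mrps28 and Mrpl55 were lower in LPS_IFNg_TubB minus LPS_IFNg, and Mrps36 in TubB minus mock. Bacterial family members were lower in 16 cases (37.2%, beside 24.9% of all genes) and higher in 0 (beside 26.3%) in TubB minus mock, and lower in 20 (46.5%, beside 25.0%) and higher in 1, Mrpl13 (beside 26.2%), in LPS_IFNg_TubB minus LPS_IFNg. Mitochondria-specific members were lower in 10 (37.0%) and higher in 2 in the first contrast. In the second they were lower in 8, or 29.6%, near the 25.0% of all genes, and higher in 3. With each library left out in turn, the bacterial family median ran from -0.38 to -0.17 in the second contrast. The mitochondria-specific median ran from -0.31 to -0.24 in the first contrast and from -0.35 to -0.16 in the second. Counts of lower members fell without single libraries. In both contrasts, the largest such fall of mitochondria-specific members was proportionally steeper than that of all genes. Exons of 18 tested members overlap another gene, and 5 and 6 of these were lower in the 2 contrasts. Those are 27.8% and 33.3%, near the 24.9% and 25.0% of all genes. Of the 55 without overlap, 22 and 24 were lower (40.0% and 43.6%). The count of 6 fell without single libraries, and without LPS_IFNg replicate 2 the share of lower members with overlap was below that of all genes. With each library left out in turn, the median of overlapping members in the second contrast ran from -0.21 to -0.12. That of members without overlap ran from -0.44 to -0.22. Members lie on 17 chromosomes, with 10 on chromosome 11. Mrpl46 and Mrps11 are neighbours on chromosome 7 with 41 bases between them, and had log2 fold changes of -0.26 ± 0.15 and -0.49 ± 0.20 in TubB minus mock and -0.37 ± 0.16 and -0.38 ± 0.20 in the second contrast. Of these 4 values only that of Mrps11 in TubB minus mock was called (edgeR adjusted p 0.0453), and it was lost without mock replicate 1 (0.295), TubB replicate 2 (0.233) or either LPS_IFNg library (0.0581 and 0.0596).

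The stimulus label by itself was compared within each compound label. For LPS_IFNg minus mock, edgeR called 0 of 73 members and 0 of 11081 genes (0%), with 1 member and 247 genes at an unadjusted p under 0.05. DESeq2 called 0 members, with 0 members and 69 genes under 0.05 unadjusted. The fold changes of members ran from -0.26 (Mrpl41) to 0.31 (Mrps24) on the log2 scale, with a median SE of 0.14. Mrps24, of a bacterial family, had the smallest p, with 43.3 and 49.4 CPM in LPS_IFNg, against 35.9 and 39.1 CPM in mock (log2 0.31 ± 0.14, edgeR adjusted p 1). Mrpl19 came next at -0.22 ± 0.11 (adjusted p 1). The summed activation markers of these libraries, given above, overlapped between the groups.

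For LPS_IFNg_TubB minus TubB, edgeR again called 0 members and 0 genes (0%), with 4 members and 269 genes at an unadjusted p under 0.05, and DESeq2 called 0 members, with 2 members and 87 genes under 0.05 unadjusted. Mrpl17, a bacterial family member of the large subunit, had 69.3 and 77.2 CPM in LPS_IFNg_TubB, against 52.9 and 64.8 CPM in TubB (log2 0.30 ± 0.11, edgeR adjusted p 0.999). Mrps12, a bacterial family member of the decoding centre, had 14.5 and 10.9 CPM in LPS_IFNg_TubB, against 17.8 and 18.5 CPM in TubB (log2 -0.54 ± 0.21, adjusted p 0.999). Neither pair overlapped, and neither passed the threshold.

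The interaction asks whether the compound contrast differs between the stimulus labels. There edgeR called 0 members and 0 genes (0%), with 1 member and 277 genes at an unadjusted p under 0.05, and DESeq2 called 0 members, with 0 members and 80 genes under 0.05 unadjusted. Mrpl41, mitochondria-specific, had the smallest p. Its level was 23.3 and 22.7 CPM in TubB, against 38.7 and 40.4 CPM in mock, and 23.0 and 29.2 CPM in LPS_IFNg_TubB, against 31.3 and 34.7 CPM in LPS_IFNg. The difference between the 2 contrasts was 0.46 ± 0.22 on the log2 scale (edgeR adjusted p 1). For Mrpl17 it was 0.31 ± 0.15 (adjusted p 1). No member was therefore shown to differ between the 2 compound contrasts, with a median SE of 0.21 for the interaction, and a missing call does not show that the contrasts are equal.

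Genes that serve the mitoribosome were counted from lists of textbook members. Of 5 subunits with other symbols, 3 were lower in TubB minus mock (Ptcd3, Gadd45gip1 and Aurkaip1), 2 in LPS_IFNg_TubB minus LPS_IFNg (Ptcd3 and Gadd45gip1) and 0 higher. The lower ones are 60% and 40%, beside 24.9% and 25.0% of all genes, of which 26.3% and 26.2% were higher. Ptcd3, a protein of the small subunit, had 67.2 and 76.1 CPM in TubB, against 114.6 and 117.0 CPM in mock, and 55.3 and 73.7 CPM in LPS_IFNg_TubB, against 127.1 and 131.3 CPM in LPS_IFNg. Its log2 fold changes were -0.68 ± 0.11 (edgeR adjusted p 4e-06) and -0.99 ± 0.11 (1.21e-08). The call of Gadd45gip1 in TubB minus mock (-0.61 ± 0.17, adjusted p 0.00365) was lost without mock replicate 1 (0.0856), and that of Aurkaip1 (-0.35 ± 0.13, 0.0214) without mock replicate 2 (0.258) or either TubB library (0.0599 and 0.073).

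Assembly factors, which help put the subunits together, were lower or not called. Of 25 tested, 11 were lower in TubB minus mock and 14 in LPS_IFNg_TubB minus LPS_IFNg, with 0 higher in either and medians of -0.46 and -0.54. The lower ones are 44.0% and 56.0%, beside 24.9% and 25.0% of all genes, of which 26.3% and 26.2% were higher. The first count was 6 (24.0%) without mock replicate 1, where 18.7% of all genes were lower, and 6 without TubB replicate 1, where 19.1% were. The second count also fell without LPS_IFNg_TubB replicate 1 or LPS_IFNg replicate 1. With each library left out in turn, the median in that contrast ran from -0.55 to -0.41. DESeq2 called 7 and 9 lower, where it called 4718 and 4815 of 11081 genes in either direction, fewer than the 5671 of edgeR in each contrast. Noa1, a GTPase needed for assembly of the small subunit, had 30.3 and 30.4 CPM in TubB, against 51.6 and 50.5 CPM in mock, with log2 fold changes of -0.75 ± 0.14 (edgeR adjusted p 3.1e-05) and -0.98 ± 0.14 (7.68e-07). Rcc1l, an assembly factor that works with mitochondrial GTPases, had 13.8 and 18.3 CPM in TubB, against 37.7 and 34.3 CPM in mock, with -1.13 ± 0.17 (2.13e-06) and -0.91 ± 0.17 (5.48e-05).

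Translation factors were also mostly lower where called. Of 16 tested, 8 were lower and 1 higher in TubB minus mock, and 9 lower and 0 higher in the second contrast, with medians of -0.47 and -0.40. The lower ones are 50% and 56.2% of the list, beside 24.9% and 25.0% of all genes, of which 26.3% and 26.2% were higher. The higher one was Slirp, an RNA-binding partner of Lrpprc, at 0.46 ± 0.14 (edgeR adjusted p 0.0067), which was lost without TubB replicate 1 (0.0607) and when scaled by library totals alone (0.25, adjusted p 0.135). Under that scaling Slirp had a log2 fold change of -0.04 in the second contrast, where it was not called. Guf1, an elongation factor of the mitochondrion, fell by 1.44 ± 0.18 on the log2 scale (2.4e-07) in TubB minus mock and by 1.12 ± 0.19 (1.43e-05) in the second. Oxa1l, which inserts newly made proteins into the inner membrane, averaged 48.8 ± 1.66 CPM in TubB and 79.8 ± 1.16 CPM in mock, and 40.4 ± 1.30 CPM in LPS_IFNg_TubB and 90.1 ± 3.43 CPM in LPS_IFNg (SD, n = 2 each). Its log2 fold changes were -0.70 ± 0.11 (edgeR adjusted p 2.64e-06) and -1.16 ± 0.11 (7.67e-10).

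Mitochondrial aminoacyl-tRNA synthetases, which charge the tRNAs that the mitoribosome reads, had the largest share of lower genes among these lists. Of 17 tested, 12 were lower in each contrast (70.6%, beside 24.9% and 25.0% of all genes) and 0 higher (beside 26.3% and 26.2%). The median was -0.61 in both. Fewer were called without single libraries. With each library left out in turn, the median ran from -0.69 to -0.58 in TubB minus mock and from -0.67 to -0.54 in the second contrast. Cars2 had 10.3 and 17.8 CPM in TubB, against 32.9 and 30.6 CPM in mock, with log2 fold changes of -1.11 ± 0.19 (edgeR adjusted p 1.84e-05) and -0.90 ± 0.20 (0.000458). Ears2 had 4.17 and 4.77 CPM in TubB, against 13.5 and 14.7 CPM in mock, with -1.64 ± 0.26 (5.01e-06) and -0.84 ± 0.26 (0.00786).

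**Figure D5:**
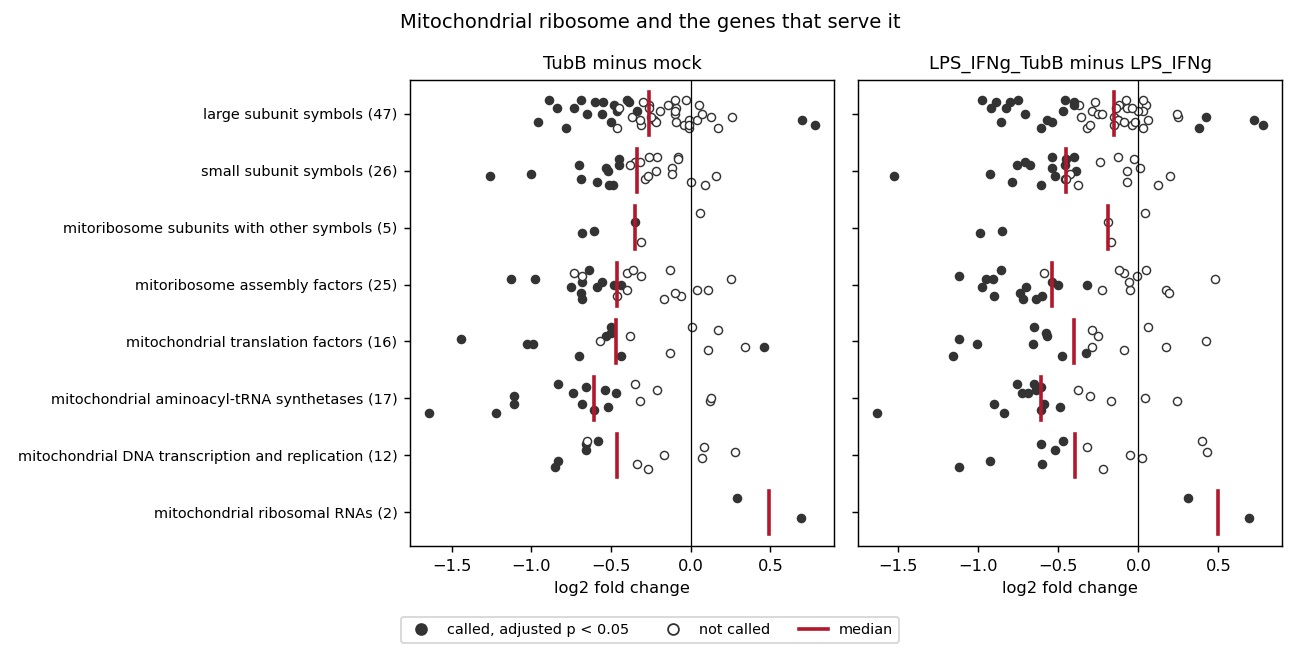
Log2 fold change (x axis) of the tested genes of 8 lists, each with its number in brackets, for TubB minus mock on the left and LPS_IFNg_TubB minus LPS_IFNg on the right; filled points have an edgeR adjusted p under 0.05 and red bars are medians. The medians of the protein-coding lists lie between -0.61 and -0.15 and those of the 2 ribosomal RNAs near 0.5.

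For the machinery that transcribes and copies mitochondrial DNA, 5 of 12 tested genes were lower in TubB minus mock and 6 in the second contrast, with 0 higher. These are 41.7% and 50% of the list, beside 24.9% and 25.0% of all genes, of which 26.3% and 26.2% were higher. The second count was 3 (23.1% of those then tested) without LPS_IFNg replicate 2 or LPS_IFNg_TubB replicate 1, where 19.7% and 18.4% of all genes were lower. Tfam, which packages and activates mitochondrial DNA, had 26.8 and 26.3 CPM in TubB, against 46.2 and 47.7 CPM in mock, and 22.7 and 24.6 CPM in LPS_IFNg_TubB, against 46.1 and 44.3 CPM in LPS_IFNg. Its log2 fold changes were -0.83 ± 0.14 (edgeR adjusted p 7.68e-06) and -0.93 ± 0.14 (2.88e-06). Twnk, the helicase, had -0.85 ± 0.15 (2.83e-05) and -1.12 ± 0.16 (8.29e-07), and shares exon bases with the member Mrpl43. Mrpl43 was called in neither contrast, at -0.45 ± 0.25 (0.137) and -0.04 ± 0.26 (0.906), but without TubB replicate 2 it was lower in TubB minus mock (-0.91, adjusted p 0.0259).

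Among 10 regulators of mitochondrial gene expression, calls ran both ways. In TubB minus mock 2 were lower and 4 higher, and in the second contrast 3 were lower and 3 higher, beside 24.9% and 25.0% of all genes lower and 26.3% and 26.2% higher. Higher in TubB minus mock were Myc, Max, Esrra and Yy1. Of these, Esrra and Yy1 lost their call without mock replicate 2 (adjusted p 0.225 and 0.0919), and Max and Yy1 without TubB replicate 1 (0.0688 and 0.11). Scaled by library totals alone, Max (0.11, adjusted p 0.272), Esrra (0.15, 0.272) and Yy1 (0.06, 0.584) were not called there, and Myc was the 1 left in each contrast, with Max at -0.02 in the second. Myc, a growth-linked transcription factor, had 80.8 and 61.4 CPM in TubB, against 12.7 and 15.9 CPM in mock, and 77.1 and 71.4 CPM in LPS_IFNg_TubB, against 10.4 and 11.9 CPM in LPS_IFNg. Its log2 fold changes were 2.30 ± 0.16 (edgeR adjusted p 4.07e-13) and 2.73 ± 0.17 (4.29e-14). The coactivators Ppargc1b and Pprc1 fell, with -1.02 ± 0.15 (1.99e-06) and -0.56 ± 0.10 (1.59e-05) in TubB minus mock and -1.09 ± 0.16 (1.15e-06) and -0.77 ± 0.10 (1.54e-07) in the second contrast. Nrf1 itself was not called, at 0.23 ± 0.14 (0.163) and -0.06 ± 0.14 (0.733). The part of these genes or of the activation markers in the levels of the members was not tested.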

How the data were processed

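The members and all gene lists were chosen with earlier results of these data known, so no count over them is independent support. The authors deposited raw read counts per gene, with summed exon lengths in bases, and a table of regularised log2 values (rlog). The aligner was STAR 2.7.0, per the submitters' processing notes; per the file headers featureCounts 2.0.1 counted read pairs over exons of a RefSeq annotation of GRCm38.p6, with no option for strand or multi-mapped reads. Under its defaults, reads that map to several places are not counted, which lowers genes with copies.

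Counts were tested with edgeR 4.0.16 (R 4.3.3): filterByExpr (minimum count 10, minimum total 15), TMM, robust quasi-likelihood fit of all 8 libraries by group, 4 residual degrees of freedom, Benjamini-Hochberg adjustment over 11081 genes, called under 0.05. CPM and RPKM use TMM-scaled library sizes. Library totals were 4767894 to 8413834 counts. Log2 fold changes carry SEs from the fit's F statistic. The fit was tested on simulated counts. Alternatives were RLE factors, no filter, 1 CPM in 2 libraries, a fit of only the groups compared, DESeq2 1.42.0, a replicate block, limma (3.58.1) on voom and on rlog values, each library left out, other subunit assignments, and, added after seeing the data, library totals alone and summed numbered copies.

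Named members were Mrpl15; up to 8 higher and 8 lower by the smaller fold change of the compound contrasts; the 2 with the smallest p in each contrast without calls; the Mrps18 paralogs; the 3 highest and lowest per length; and those below the filter. From each list up to 4 called genes could be named, and some of these are described. Of the symbols listed for proteins encoded in mitochondrial DNA, 0 matched a row, and they were not analysed here. Sequences are RefSeq promoter windows.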

Additional observations from a re-analysis of the deposited data

How the results depend on the processing

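No called value changed sign under any alternative, and the 88 medians of large or small subunit members under the settings tried were all below 0. On the rlog values the medians were closer to 0, at -0.15 and -0.19 (large and small subunit) for TubB minus mock and -0.10 and -0.26 for LPS_IFNg_TubB minus LPS_IFNg; rlog shrinks differences by construction. Scaled by library totals alone, the median of all genes itself shifted to -0.23 and -0.22. There 48 members were lower in TubB minus mock, 2 were higher in LPS_IFNg_TubB minus LPS_IFNg, and the medians were -0.47 and -0.55, and -0.36 and -0.66. The large subunit median of LPS_IFNg_TubB minus LPS_IFNg was -0.19 with the subunits of other symbols added and -0.19 with all members and no filter, against -0.15; the cause was not tested. Leaving out each library gave -0.29 to -0.14 for it and 2 to 4 members higher in that contrast. Leave-one-out counts of lower members changed with the library left out, as did those of all genes. DESeq2 called 25 and 26 members in all, where it called 4718 and 4815 of 11081 genes. Of these counts and medians under alternatives, 246 stayed within 1.5 times or within the spread between replicates, and 16 did not. The 246 include the counts of the contrasts without calls, which were 0 under every setting. They also include fits without a library that the contrast does not use. The tally therefore does not measure how stable the calls of the 2 compound contrasts are.

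Over all genes tested, deviations of same-numbered samples from their group means correlated between -0.05 and 0.15. Pairing within single genes was not tested. The replicate block lowered the edgeR adjusted p of Nos2, Ptgs2 and Il6 in both compound contrasts, for Il6 in TubB minus mock from 0.000304 to 4.69e-18. With the replicate block, 30 members were called in TubB minus mock and 36 in LPS_IFNg_TubB minus LPS_IFNg, where 5729 and 5753 of 11081 genes were. In the other contrasts 0 members and 0 genes were called. Depth limits members of low count: Mrps35 (179 counts), Mrpl43 (548) and Mrps28 (643) have the largest errors.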
